A study of Rattus norvegicus with 6 samples.

Results

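Nitric oxide (NO) and the natriuretic peptides relax blood vessels through the same second messenger, cyclic GMP (cGMP). NO diffuses into the mural cell and activates soluble guanylate cyclase, a heme enzyme made of an alpha and a beta subunit. Atrial and C-type natriuretic peptides act on receptors that are themselves guanylate cyclases. cGMP then activates cGMP-dependent kinases, which lower calcium release and favour dephosphorylation of myosin, until phosphodiesterases break it down. The 9 genes described here are the soluble cyclase subunits Gucy1a2, Gucy1a3 and Gucy1b3, the type II cGMP kinase Prkg2, the phosphodiesterase Pde5a, the natriuretic peptide receptors Npr1, Npr2 and Npr3, and Mrvi1, a substrate of the type I cGMP kinase. They were taken by symbol from the table of the series, and 9 of the 9 had a row among its 14607 genes.

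The table compares mRNA of mid-capillary pericytes (mcPCs) with that of vascular smooth muscle cells (VSMCs) of the cerebral cortex, with 3 samples of each, from untreated male Sprague-Dawley rats aged 4 to 5 weeks. VSMCs were the cells bound by GSA lectin from arterioles held back by a filter, after depletion of CD31 and CD11b positive cells, and may hold a few ensheathing pericytes. mcPCs were the cells of the filtrate left after endothelial cells, microglia, astrocytes and oligodendrocytes had been pulled out by antibodies (CD31, CD11b, GLAST and O4), so that any unlabelled cell stayed with them. Cortices of several rats were pooled for each isolation, which gave a sample of each cell type. The table holds the authors' means per cell type and no value per sample. No SD, n or test can therefore be attached to a difference here, the spread between isolations is not given here, and the intervals given cover counting error only.

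Levels within a cell type are given in TPM, transcript abundances corrected for length and scaled to the same total in each library. Differences are log2 ratios, mcPCs over VSMCs, of the authors' mean normalized counts with a pseudocount of 0.5, and a gene is called lower or higher where it is past 2-fold. The counts assigned to genes came to a mean of 61978061 reads per VSMC sample and 47990230 per mcPC sample. Smooth muscle markers followed the labels, with 17233 TPM of Acta2 in VSMCs and 20.2 TPM in mcPCs, and 7 of 7 such genes were past 2-fold lower in mcPCs. Of 7 pericyte genes 5 were past 2-fold higher, among them the channel genes Abcc9 (12.4 and 320.4 TPM) and Kcnj8 (17.2 and 346 TPM). Over all listed genes 13.8% were lower and 21.8% higher. The mcPC fraction also held erythrocyte RNA, with 10 of 10 listed erythrocyte genes past 2-fold higher. This list and all hemoglobin genes made up 66.6% of mcPC TPM and 0.87% of VSMC TPM. TPM as it stands put the median gene at -1.72 on the log2 scale and 86.3% of genes below 0, against 0.01 and 49.3% for normalized counts, and differences between the cell types are therefore given in normalized counts. Where values of both are given together, the first is that of VSMCs.

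The soluble cyclase, Mrvi1 and Pde5a were abundant in both cell types, whereas the natriuretic peptide receptors and Prkg2 were rare in both. In VSMCs the order of TPM was Mrvi1, Gucy1b3, Gucy1a3, Pde5a, Gucy1a2, Npr1, Npr3, Npr2 and Prkg2. In mcPCs it was Gucy1b3, Gucy1a3, Mrvi1, Pde5a, Gucy1a2, Npr1, Npr2, Npr3 and Prkg2. Between neighbours in these orders the counting interval of the TPM ratio included 1 only for Npr3 over Npr2 in VSMCs, at 1.11 (95% counting interval 0.754 to 1.60), and its lower bound was just above 1 for Npr3 over Prkg2 in mcPCs, at 1.67 (1.01 to 2.75). Of the 9 genes, 3 were at least 2-fold lower in mcPCs, where 13.8% of all listed genes were. Another 2 were at least 2-fold higher in mcPCs, where 21.8% of all listed genes were, and 4 lay within 2-fold. The median log2 ratio was -0.15 over the 9 genes and 0.01 over all listed genes. The genes called lower, Mrvi1, Gucy1a2 and Pde5a, are abundant, and those called higher, Npr1 and Npr2, were under 2 TPM in either cell type.

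**Figure D1:**
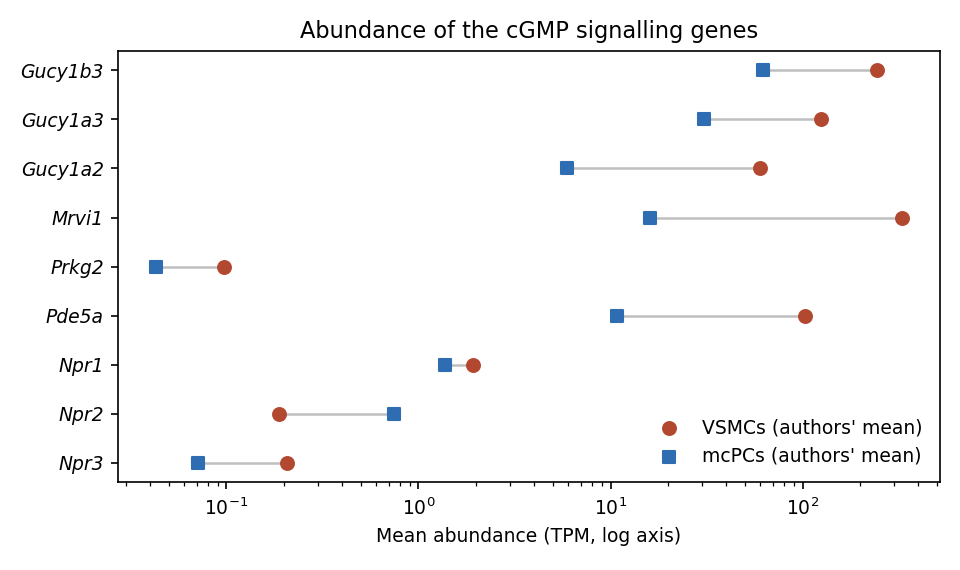
Authors' mean abundance of the 9 genes in TPM on a log axis, in VSMCs (circles) and mcPCs (squares), with a line joining the values of a gene. The soluble cyclase subunits, Mrvi1 and Pde5a lie between 5.95 and 331 TPM, while the natriuretic peptide receptors and Prkg2 lie between 0.0428 and 1.93 TPM.

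Gucy1b3 (ENSRNOG00000012060) encodes the beta1 subunit, which holds the heme that senses NO and is needed in every soluble cyclase dimer. VSMCs held 244 TPM of it and mcPCs 62.1 TPM, more than 95.7% and 96.2% of the genes in the table. Its mean normalized counts were 21215 and 19113, a log2 ratio of -0.15 (95% counting interval -0.17 to -0.13). Gucy1a3 (ENSRNOG00000012302) encodes alpha1, the usual partner of beta1 in vessels. VSMCs held 124 TPM and mcPCs 30.7 TPM, above 91.7% and 92.0% of the genes in the table, with 15751 and 13736 normalized counts and a log2 ratio of -0.20 (-0.22 to -0.18). The genes for alpha1 and beta1 thus kept nearly the same rank in both cell types. Scaling counts without the erythrocyte list and all hemoglobin genes, which puts the median gene at 0.18, gave 0.00 for Gucy1b3 and -0.04 for Gucy1a3, so that no direction can be given for either.

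Gucy1a2 (ENSRNOG00000029876) encodes alpha2, the other alpha subunit able to pair with beta1, which is known for binding synaptic scaffold proteins. At 59.8 TPM it stood above 83.0% of the genes in VSMCs, and at 5.95 TPM above 63.2% in mcPCs. Normalized counts were 4434 and 1535, a log2 ratio of -1.53 (95% counting interval -1.58 to -1.48) or 2.89-fold lower in mcPCs. The ratio rests on 18672 reads over the VSMC samples and 3437 over the mcPC samples. The subunits therefore did not differ alike between the cell types.

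The make-up of the cyclase can be compared within each cell type, which no scaling between cell types can move. Alpha2 made up 32.5% (95% counting interval 32.1 to 32.8) of alpha1 and alpha2 TPM in VSMCs and 16.2% (15.7 to 16.7) in mcPCs. Put as a ratio, Gucy1a3 had 2.08 times the TPM of Gucy1a2 in VSMCs and 5.17 times in mcPCs. By contrast Gucy1a3 stood at 0.51 of the TPM of Gucy1b3 in VSMCs and at 0.495 in mcPCs. The sum of both alpha subunits reached 0.755 of Gucy1b3 in VSMCs and 0.591 in mcPCs. The alpha1 to beta1 ratio was thus much the same in the pools of arteriolar and capillary cells, and the share of alpha2 was not.

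The genes of alpha1 and beta1 are neighbours on rat chromosome 2, with 0 other protein-coding genes between them in RefSeq (assembly GRCr8), while that of alpha2 is on chromosome 8. The 250 bases before an annotated start of each are printed, together with those of Pde5a, because these 4 genes form the abundant NO-cGMP-PDE5 set and fall into a pair with even levels and a pair lower in mcPCs. Sequences are from RefSeq on GRCr8, read 5' to 3' on the strand of the gene, and capitals mark GGGCGG and CCAAT on either strand.

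Gucy1b3 (Gucy1b1 in RefSeq), chr2:169696988-169697237, - strand: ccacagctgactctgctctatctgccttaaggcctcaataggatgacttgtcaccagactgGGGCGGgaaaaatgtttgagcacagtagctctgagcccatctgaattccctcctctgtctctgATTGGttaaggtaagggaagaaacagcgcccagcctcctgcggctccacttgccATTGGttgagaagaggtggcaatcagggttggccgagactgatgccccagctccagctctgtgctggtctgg
Gucy1a3 (Gucy1a1 in RefSeq), chr2:169779624-169779873, - strand: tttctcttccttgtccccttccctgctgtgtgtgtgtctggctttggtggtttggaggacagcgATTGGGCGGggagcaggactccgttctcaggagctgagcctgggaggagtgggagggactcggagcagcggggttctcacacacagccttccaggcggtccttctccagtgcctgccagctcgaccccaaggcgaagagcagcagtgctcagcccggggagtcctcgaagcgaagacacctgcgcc
Gucy1a2, chr8:8784962-8785211, + strand: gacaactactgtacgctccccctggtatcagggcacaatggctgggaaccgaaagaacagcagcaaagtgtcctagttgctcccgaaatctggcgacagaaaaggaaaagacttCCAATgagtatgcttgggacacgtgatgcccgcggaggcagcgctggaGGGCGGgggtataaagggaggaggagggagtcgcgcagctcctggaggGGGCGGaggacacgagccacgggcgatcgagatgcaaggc
Pde5a, chr2:213543776-213544025, + strand: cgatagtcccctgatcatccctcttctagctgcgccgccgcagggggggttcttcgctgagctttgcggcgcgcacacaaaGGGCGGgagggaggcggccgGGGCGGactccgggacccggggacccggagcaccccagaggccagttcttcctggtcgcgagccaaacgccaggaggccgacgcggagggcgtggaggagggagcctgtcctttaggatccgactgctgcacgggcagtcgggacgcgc

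GGGCGG, the core of the GC box, was present in each of these 4 windows, and in 30.5% of the 33469 windows of the same length in the RefSeq table. CCAAT, the CCAAT box, occurred 2 times for Gucy1b3 and once each for Gucy1a3 and Gucy1a2 and not for Pde5a, and its share over all windows was 34.0%. In Gucy1a3 the matches to both overlap. The TATA box letters TATAAA were found in the Gucy1a2 window, as in 12.9% of all windows. The CArG box, the element bound by serum response factor in smooth muscle genes, had no match in any of the 4 and was found in 1.5% of all windows. GC content was 54.8% for Gucy1b3, 63.2% for Gucy1a3, 59.6% for Gucy1a2 and 70.4% for Pde5a, against 51.2% for the median of all windows. These matches are a description of the letters and not of bound sites. Windows were present for 7 of the 9 genes, which leaves out Prkg2 and Npr2.

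Pde5a (ENSRNOG00000014443) encodes the cGMP-specific phosphodiesterase inhibited by sildenafil. Its 103 TPM in VSMCs lay above 89.8% of the genes, and its 10.8 TPM in mcPCs above 77.5%. Normalized counts were 9514 and 3515, a log2 ratio of -1.44 (95% counting interval -1.47 to -1.40), or 2.71-fold lower in mcPCs. Set against beta1 within each cell type, Pde5a stood at 0.423 of the TPM of Gucy1b3 in VSMCs (0.418 to 0.428) and at 0.174 in mcPCs (0.170 to 0.179). Pde5a transcripts were therefore fewer per Gucy1b3 transcript in the pericyte fraction. Other phosphodiesterases, given next, differed in both directions, so this ratio does not stand for cGMP removal as a whole.

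Pde5a is 1 of several phosphodiesterases able to hydrolyse cGMP. The others were looked up from a list of 15 genes, of which 9 had a row. These include Pde6d (37.9 and 10.2 TPM, log2 ratio -0.09), which is not counted as a catalytic subunit below. Of the 9 with a row, 3 were at least 2-fold lower in mcPCs, 5 were at least 2-fold higher and 1 lay within 2-fold. Over all listed genes 13.8% were lower and 21.8% higher. The share of 21.8% is not matched for level, since higher calls were more common among genes rare in VSMCs. Pde3a, whose product is inhibited by cGMP and thereby ties it to cAMP, was the most abundant in VSMCs, with 455 TPM against 5.72 TPM in mcPCs and a log2 ratio of -4.50. Pde1a, a calmodulin-dependent enzyme, had 76.7 and 7.41 TPM, a log2 ratio of -1.52 that is close to that of Pde5a. Pde10a had 12.1 and 0.766 TPM, with a log2 ratio of -2.20. In the other direction Pde2a, whose product is stimulated by cGMP, had 32.8 and 31.8 TPM, a log2 ratio of 1.78 (95% counting interval 1.75 to 1.81) in normalized counts. Pde3b and Pde1b were higher too, by 1.81 and 1.10, at no more than 3.11 TPM.

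A sum was taken over 9 genes that encode cGMP-hydrolysing catalytic subunits, with Pde5a included and Pde6d left out. In this grouping, made after the values had been seen, TPM came to 684 in VSMCs and 60.4 in mcPCs. Pde5a had a similar share of that sum in either cell type, 15.1% in VSMCs and 17.9% in mcPCs. The remainder differed in kind. Pde3a made up 66.5% in VSMCs and 9.48% in mcPCs, whereas Pde2a made up 4.80% in VSMCs and 52.7% in mcPCs. Pde3a thus had 4.41 times the TPM of Pde5a in VSMCs, and Pde2a had 2.94 times the TPM of Pde5a in mcPCs.

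**Figure D2:**
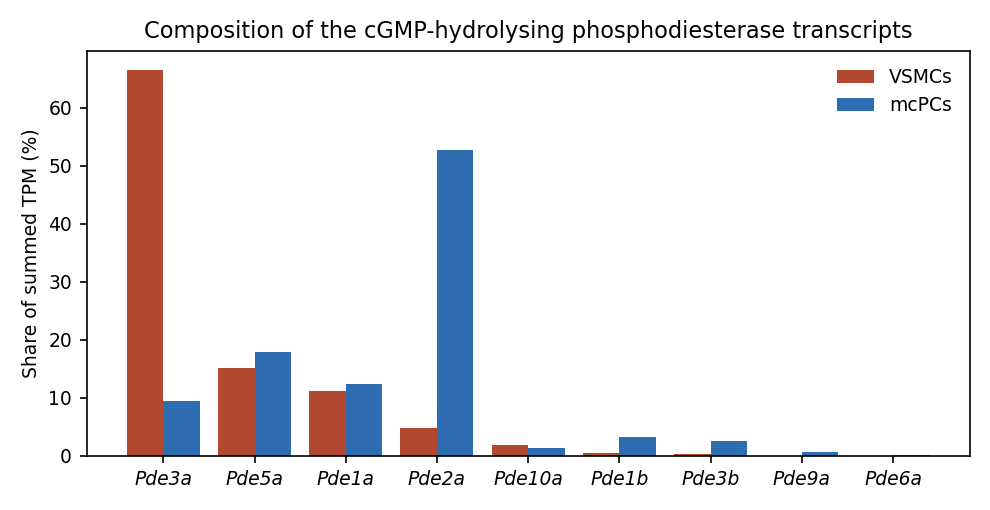
Share of each gene in the summed TPM of 9 cGMP-hydrolysing phosphodiesterase genes, in percent, for VSMCs and mcPCs (authors' means, no error bars since the table holds no values per sample). Pde3a leads in VSMCs with 66.5% and Pde2a in mcPCs with 52.7%, while Pde5a holds 15.1% and 17.9%.

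Mrvi1 (ENSRNOG00000017767), now named Irag1, encodes the protein through which the cGMP kinase type I inhibits calcium release by the inositol trisphosphate receptor. It was the most abundant of the 9 genes in VSMCs, with 331 TPM, and had 16.0 TPM in mcPCs. Normalized counts were 57191 and 9650, a log2 ratio of -2.57 (95% counting interval -2.59 to -2.55), or 5.93-fold lower in mcPCs. Its place among all listed genes went from above 96.8% in VSMCs to above 84.2% in mcPCs. Itpr1, the gene of the receptor that the protein holds in check, was lower alongside it, with 140 and 5.51 TPM and a log2 ratio of -2.85. Mrvi1 had 2.36 times the TPM of Itpr1 in VSMCs and 2.90 times in mcPCs. Against the cyclase it had 1.36 times the TPM of Gucy1b3 in VSMCs and 0.257 times in mcPCs. RefSeq gives 2 start windows for Mrvi1, shown because its log2 ratio was the furthest from 0 among the 5 abundant genes, in the same form as above.

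Mrvi1 (Irag1 in RefSeq), upstream start, chr1:174528852-174529101, - strand: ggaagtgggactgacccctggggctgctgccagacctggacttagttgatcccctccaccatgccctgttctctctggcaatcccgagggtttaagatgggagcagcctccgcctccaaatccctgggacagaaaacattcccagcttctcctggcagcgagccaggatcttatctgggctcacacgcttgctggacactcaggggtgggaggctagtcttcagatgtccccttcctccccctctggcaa
Mrvi1 (Irag1 in RefSeq), downstream start, chr1:174495104-174495353, - strand: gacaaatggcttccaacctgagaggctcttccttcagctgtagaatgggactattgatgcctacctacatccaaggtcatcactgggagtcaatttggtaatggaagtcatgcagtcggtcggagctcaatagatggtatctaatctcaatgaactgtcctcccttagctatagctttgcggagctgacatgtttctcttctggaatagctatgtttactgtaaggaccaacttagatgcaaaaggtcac

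Neither window held any of the 4 motifs, and GC content was 59.2% and 44.8%.

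Prkg2 (ENSRNOG00000002361) encodes the membrane-bound cGMP kinase type II, known mainly from intestine, bone and brain. It was at the low end of the table, at 0.0967 TPM in VSMCs (above 3.27% of the genes) and 0.0428 TPM in mcPCs (above 1.56%). These levels rest on 53 reads over the VSMC samples and 39 over the mcPC samples, or 17.7 and 13.0 per sample. The log2 ratio of 0.61 had a 95% counting interval of -0.00 to 1.26, and TPM as it stands gave -0.46, so no difference was detectable at this depth. Prkg1, the gene of the type I kinase that acts on the Mrvi1 product in smooth muscle, has no row. Genes entered the table when every sample had a read of them, and an absent row cannot be told apart from a gene missing from the cDNA set used for quantification. Nothing can be said here of its level.

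The natriuretic peptide receptors were low in both cell types, with sums of 2.32 and 2.18 TPM, against 428 and 98.8 TPM for the 3 soluble cyclase subunits. Npr1 (ENSRNOG00000014684), the receptor cyclase for atrial and B-type natriuretic peptide, reached 1.93 TPM in VSMCs and 1.37 in mcPCs. Its normalized counts were 215 and 533, a log2 ratio of 1.31 (95% counting interval 1.18 to 1.44), and its level was above 23.6% and 29.7% of the listed genes. On TPM as it stands the ratio turned to -0.47, a scale on which most genes are lower in mcPCs. Relative to the median gene it was 1.25.

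Npr2 (ENSRNOG00000015991), the receptor cyclase for C-type natriuretic peptide, stood at 0.188 TPM in VSMCs and 0.745 in mcPCs. It was the only 1 of the 9 genes with a higher TPM in mcPCs. Its normalized counts were 20.7 and 283, a log2 ratio of 3.74 (95% counting interval 3.45 to 4.11) or 13.4-fold higher. The ratio rests on 87 reads over the VSMC samples and 627 over the mcPC samples. Npr3 (ENSRNOG00000019184), the receptor without a cyclase domain that clears the peptides, had 0.208 and 0.0715 TPM from 45 and 31 reads. Its log2 ratio of 0.28 had a counting interval of -0.42 to 0.98, and no difference was detectable at this depth. Of the TPM of the receptors, Npr1 held 82.9% in VSMCs and 62.6% in mcPCs, and Npr2 held 8.11% and 34.1%.

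Markers of other cells were also higher in mcPCs, several of them at more TPM than any of these receptors. Of 12 endothelial markers 10 had a row and 8 were at least 2-fold higher in mcPCs. Leaving out Esam, which had 487 TPM in VSMCs, the other 9 summed to 11.2 TPM in VSMCs and 30.0 TPM in mcPCs. Most of that VSMC sum was Flt1, a marker within 2-fold, with 8.2 and 1.41 TPM. Of 6 microglia and macrophage markers 6 were at least 2-fold higher, with a sum of 0.793 and 27.1 TPM. So were 6 of 6 neuronal markers (3.42 and 23.5 TPM), 4 of 5 astrocyte markers (14.2 and 20.1 TPM) and 5 of 6 oligodendrocyte markers (6.75 and 8.34 TPM). Over all listed genes 21.8% were higher. Most of these markers were below 0.8 TPM in VSMCs, and higher calls were more common among genes rare there. The astrocyte sum in VSMCs was mostly Aldoc, the marker within 2-fold, with 13.6 and 4.41 TPM. Among all these markers Cldn5 had 15.4 TPM, Ptprc 15.1 TPM, Tubb3 15.7 TPM and Slc1a3 12.7 TPM in mcPCs. The part of such cells in the values of Npr1, Npr2 and the other rare genes was not tested. In bulk samples, more cells with a transcript and more of it per cell cannot be told apart.

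**Figure D3:**
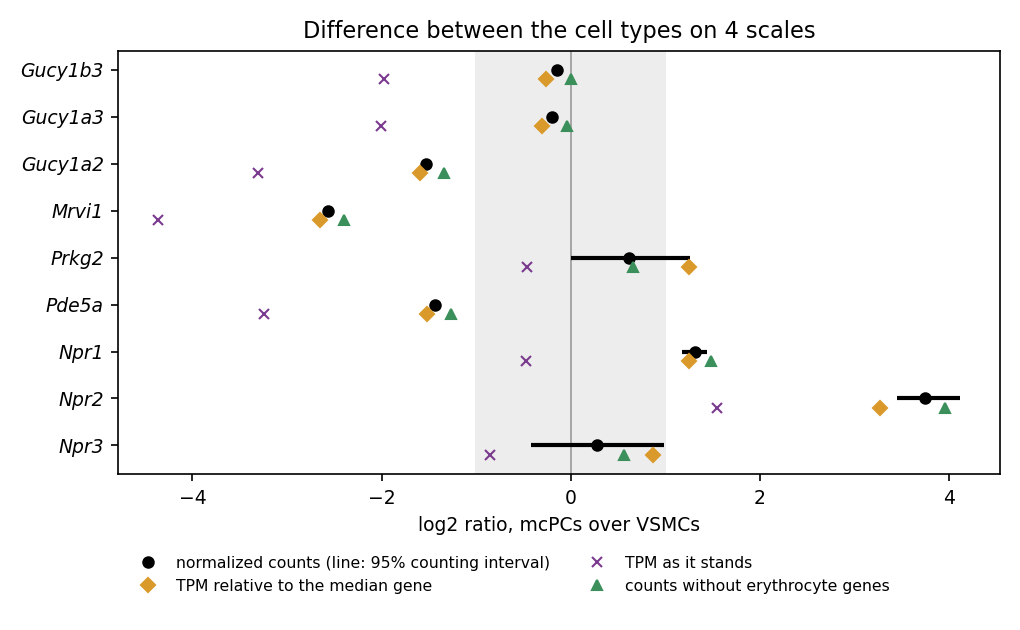
Log2 ratio of mcPCs over VSMCs for the 9 genes on 4 scales: authors' mean normalized counts (black, with the 95% counting interval), TPM relative to the median gene, TPM as it stands, and counts scaled without the erythrocyte list and hemoglobin genes. The grey band marks less than 2-fold. Mrvi1, Gucy1a2 and Pde5a lie left of the band on each scale, Npr2 right of it on each scale, and Npr1 moves from 1.31 to -0.47 on TPM as it stands.

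The rest of the pathway was read from 94 further symbols in 7 lists, of which 65 had a row. Gucy1a1, Gucy1b1 and Irag1, which had none, are newer names of Gucy1a3, Gucy1b3 and Mrvi1. Of the 65, 19 were at least 2-fold lower in mcPCs and 22 at least 2-fold higher, with a median log2 ratio of 0.07. Over all listed genes these shares were 13.8% and 21.8%, and the counts of single lists, which are small, are to be read beside them. The share of 21.8% is not matched for level, here or for single lists, since higher calls were more common among genes rare in VSMCs. Among the lower ones were 3 genes of myosin phosphatase, which relaxes the cell by removing phosphate from myosin. Ppp1r12a, the targeting subunit that the cGMP kinase binds, had 446 and 12.4 TPM and a log2 ratio of -3.37. Its relative Ppp1r12b had 375 and 2.38 TPM with -5.50, and the catalytic subunit Ppp1cb had 309 and 16.8 TPM with -2.38. Genes of the opposing, contractile side were lower as well, with -3.57 for Mylk, the kinase that phosphorylates myosin light chain, and -4.00 for Myl9, that light chain. Ppp1r14b, of a family of phosphatase inhibitors, had 75.6 and 33.6 TPM with 0.64, within 2-fold, and its relative Ppp1r14a had 708 and 96.8 TPM with -1.05.

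Among 15 genes of kinase partners with a row, 6 were at least 2-fold lower and 5 at least 2-fold higher in mcPCs (13.8% and 21.8% over all listed genes). Lower ones included genes of calcium stores and of the large-conductance potassium channel that cGMP signalling opens. Pln, the phospholamban gene, had 387 and 0.255 TPM with a log2 ratio of -8.84, and Atp2a2, the calcium pump it regulates, 1089 and 30.8 TPM with -3.32. Kcnmb1 and Kcnma1, the beta1 and pore subunits of that channel, had ratios of -6.73 and -6.40. Other beta subunits of the channel went the other way at low levels, with 1.19 for Kcnmb2 (2.54 and 1.39 TPM) and 3.60 for Kcnmb4. Kcnmb4, named after its value was seen, was near the floor, with 0.153 and 0.571 TPM from 19 and 124 reads. Trpc6, a cation channel, had 4.28 and 0.0931 TPM with -3.71. Not all partners followed. Vasp, a classical kinase substrate of the cytoskeleton, had 285 and 55.2 TPM with -0.56, and Rgs2, a G protein regulator stimulated by the cGMP kinase, 140 and 40.7 TPM with -0.01. Higher in mcPCs were Lrmp, a gene related to Mrvi1, with 1.59 and 10.5 TPM and a ratio of 4.49, Rgs3 with a ratio of 3.41, and Itpr3 with 0.478 and 1.40 TPM and 3.30. Mrvi1 and Lrmp, and Itpr1 and Itpr3, thus differed in opposite directions. Within mcPCs Lrmp stood at 10.5 TPM beside 16.0 TPM of Mrvi1, and Itpr3 at 1.40 TPM beside 5.51 TPM of Itpr1. Markers of other cells were higher in mcPCs as given above, among them Ptprc with 0.0659 and 15.1 TPM. The part of such cells in the values of Lrmp, Rgs3 and Itpr3 was not tested.

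**Figure D4:**
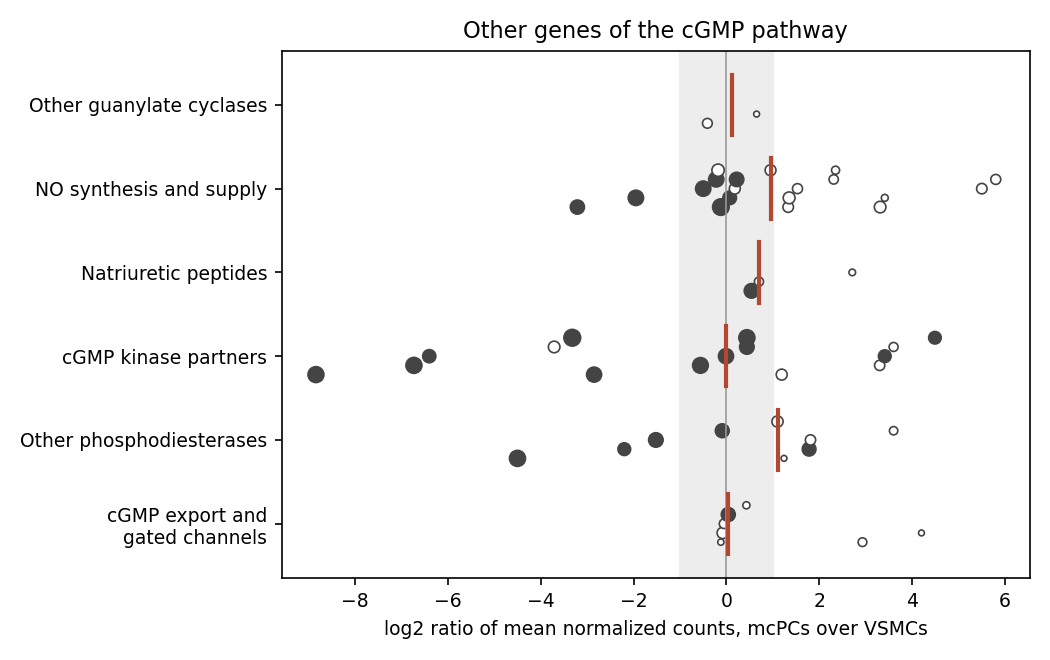
Log2 ratio of authors' mean normalized counts, mcPCs over VSMCs, for 55 further genes of the pathway in 6 lists. Each circle is a gene, larger with its higher TPM of both cell types and filled at 10 TPM or more. Red bars mark the list median and the grey band less than 2-fold. The list medians run from -0.01 for the kinase partners to 1.10 for the other phosphodiesterases.

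On the side of NO supply, 19 of 21 genes had a row. Of these, 2 were at least 2-fold lower in mcPCs and 9 at least 2-fold higher (13.8% and 21.8% over all listed genes). The NO synthases themselves, named here for their role whatever their values, were near the floor, with 0.493 and 0.727 TPM for Nos3 and 0.0605 and 0.166 TPM for Nos1, and Nos2 had no row. Slc7a2, a carrier of the NO precursor arginine, had 52.4 and 1.67 TPM, a log2 ratio of -3.21. Cyb5r3, the reductase that keeps the heme of the soluble cyclase in the state able to bind NO, had 195 and 14.2 TPM with -1.95. Gucy1b3, which carries that heme, had -0.15. Ddah2, which degrades an inhibitor of NO synthases, had 175 and 34.8 TPM with -0.50, and the chaperone gene Hsp90ab1 832 and 221 TPM with -0.12. Those higher in mcPCs were mostly rare genes, and Nos1, Nos3, Nostrin and Ass1 were below 0.8 TPM in VSMCs. Higher calls were more common among genes rare there. Over all listed genes 3184 of 14607 were higher, against 1596 of 12218 at or above 0.8 TPM in VSMCs. The share of 21.8% is thus not matched for level. Whether 9 is more than equally rare genes would give was not tested. Gch1, which starts the synthesis of the synthase cofactor, had 1.49 and 4.29 TPM with 3.31, Nostrin 0.121 and 1.69 TPM with 5.50, and Ass1 0.0582 and 1.16 TPM with 5.80. Nostrin and Nos3 are known from endothelium, whose markers were higher in mcPCs as given above, and their part in these values was not tested.

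Few ligands and further cyclases had a row, and no level can be given for the others. Of 7 genes for natriuretic peptides and their processing, 3 had a row, 1 of them at least 2-fold higher in mcPCs and 0 lower. Furin, a general proprotein convertase, was the only abundant 1 with 81.4 and 33.4 TPM and a ratio of 0.54, and Nppc, the gene of the ligand of Npr2, had 0.601 and 0.295 TPM. Of 8 other cyclase symbols, 6 had no row, 2 of which are the newer names of Gucy1a3 and Gucy1b3, and Gucy2d was the higher of the remaining pair with 0.995 TPM in VSMCs. Of 7 genes for cGMP export and gated channels with a row, 2 were at least 2-fold higher in mcPCs, 0 were lower and 5 lay within 2-fold. Over all listed genes 21.8% were higher and 13.8% lower. Abcc5, a cGMP exporter, had 43.0 and 12.3 TPM with a ratio of 0.04.

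With the means of 2 cell types, the pattern of a gene is a pair of levels. The genes nearest to Gucy1b3 in log2 TPM were Jam3 (238 and 63.1 TPM), Ndufb4 (235 and 61.5 TPM) and Edf1 (238 and 65.0 TPM), at distances of 0.042 to 0.075. Nearest to Gucy1a2 were Atg16l1, Zfp664 and Taf7, at 0.022 to 0.041. Nearest to Pde5a were Snx18, Mgat3 and Nat6, at 0.026 to 0.077. Many genes share a pair of levels over so few points, and no more than that is meant by likeness here.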

How the data were processed

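RNA-Seq of 3 VSMC and 3 mcPC samples was used. Reads were cleaned by the authors in Eoulsan and quantified with Salmon (version 0.8.0 in the submitters' processing notes) against Ensembl cDNA of Rnor_6.0. Transcripts were then combined into genes by tximport, and counts were normalized by DESeq2. RNA integrity numbers were 6.40 to 8.50. Deposited TPM values are the authors' means per cell type. Estimated counts deposited by the authors are means per sequencing run, since 69.8% (VSMCs) and 71.5% (mcPCs) became whole numbers of reads (within 0.01 read) when multiplied by 12, the number of runs for each cell type (4 per library). Reads given are these products. Normalized counts deposited by the authors are signal values, counts divided by normalization factors. Effective lengths in bases were deposited too. Columns with the authors' fold change, its standard error, p-values and adjusted p-values hold their own comparison and were not used.

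Ratios used a pseudocount of 0.5 on normalized counts and 0.1 on TPM. The 95% counting intervals are exact binomial (Clopper-Pearson) on the reads of both cell types or both genes. They cover counting error only, take PCR copies and runs as independent, and leave out the spread between isolations, so that they are far too narrow for a comparison of cell types. Steps were tested on simulated data. Named were every member, list genes at 10 TPM or more in either cell type or past 2-fold at 1 TPM or more, the 2 highest markers per list and cell type, and the 3 nearest genes to Gucy1b3, Gucy1a2 and Pde5a in log2 TPM. Nos1, Nos3, Nppc, Gucy2d, Kcnmb4, Abcc9 and Kcnj8 were named outside that rule, after their values had been seen. The 9 genes and all lists were chosen with earlier results of these data known. Genes were matched to RefSeq windows (GRCr8) by Entrez number. Intervals came from scipy 1.17.1 under Python 3.11.15, tables from pandas 2.3.3 with numpy 2.4.6, and plots from matplotlib 3.10.9. The counts over 1 of the 7 pathway lists are not reported here on their own.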

Additional observations from a re-analysis of the deposited data

How the results depend on the processing

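The numbers of genes past 2-fold depended mainly on the scale. On TPM as it stands, 5 of the 9 genes were at least 2-fold lower in mcPCs and 1 higher, against 3 and 2 on normalized counts, and of the other pathway genes 38 were lower and 8 higher, against 19 and 22. That scale moves the median gene to -1.72 and puts 86.3% of all listed genes below 0. The share of all genes past 2-fold on it is not given here, so its counts are not read as results about these genes. On TPM as it stands the log2 ratio of Npr1 turned to -0.47. Counts scaled to the same total put 69.3% of all genes below 0, and 1 of the 9 genes (Npr2) was then higher, Npr1 being at 0.75. At 4-fold, 1 of the 9 genes was lower and 1 higher, and 15 pathway genes were lower and 14 higher. The shares of all listed genes at 4-fold are not given here. Keeping genes at or above 0.8 TPM in VSMCs left 1 of the 9 genes and 10 pathway genes higher, while 3 and 19 stayed lower. This filter takes out genes rare in VSMCs, among them Npr2 with 0.188 TPM there. Over all listed genes 3184 of 14607 were higher, and over those kept 1596 of 12218. Without length, the share of alpha2 was 22.0% in VSMCs and 10.1% in mcPCs, still larger in VSMCs. Other pseudocounts, centring on the median gene, counts scaled without the erythrocyte list, and 1.5-fold kept each of these counts within 1.5 times, as did leaving out all hemoglobin genes, an alternative chosen after seeing the data. Over the 8 alternatives the ratio of Mrvi1 ran from -4.36 to -2.40, Gucy1a2 from -3.31 to -1.34, Pde5a from -3.24 to -1.27, Npr2 from 1.55 to 3.95, Gucy1b3 from -1.97 to 0.00, and Gucy1a3 from -2.01 to -0.04. Prkg2 and Npr3 changed sign in 2 each, with reads too few to give a direction. No paired analysis was possible because the columns are means per cell type, and for that reason no sample was left out in turn. Precision between isolations was not analysed here, since the authors' standard errors were not used.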
